A study of Mus musculus with 8 samples.

Results

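The ATF4-CHOP arm of the stress response was read in mouse embryonic fibroblasts through 10 genes. Atf4, Ddit3 (CHOP), Atf3, Atf5, Cebpb and Cebpg are transcription factor genes, and Nupr1 encodes a small chromatin-associated stress protein. Trib3 and Ppp1r15a are feedback genes, and Chac1 is an effector gene. The 10 genes were picked by symbol from 23366 gene symbols, with the row of most counts taken for each, and all were found and tested. The study compared wild-type (WT) fibroblasts with fibroblasts whose labels name a kdm3a knockout (KO), both of strain C57BL/6 and at passages 3 to 5. Kdm3a encodes a histone demethylase. Each genotype was sequenced fed (0 h, DMEM with 10% FBS and antibiotics) and starved (12 h in DMEM without glucose and with 10% dialyzed FBS after a PBS wash), with 2 libraries in each of the 4 groups. Time, medium change and dialyzed serum went with the loss of glucose, so "starved" stands for all of them. The labels do not say which allele the KO cells carry, how many embryos they came from or whether replicates were separate cultures, and p-values measure the spread between these libraries, which may be technical.

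ATF4 is a basic leucine zipper (bZIP) transcription factor whose protein is made mainly when the initiation factor eIF2 is phosphorylated by one of several stress kinases, so its messenger level shows only part of its control. It binds DNA as a pair with C/EBP family proteins and turns on genes of amino acid supply as well as CHOP, ATF3 and ATF5, further factors of the same fold. CHOP and ATF4 then switch on their own brakes: TRIB3 is a pseudokinase that binds ATF4 and CHOP, and PPP1R15A (GADD34) brings a phosphatase to eIF2 and lets translation start again. In fibroblasts this cascade is known to answer to loss of amino acids, misfolded protein in the endoplasmic reticulum (ER) and loss of sugars used for protein glycosylation.

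The 250 bases before the start sites were searched for 2 motifs. Windows from RefSeq (build GRCm38.p6, a later build than the one named for these counts) were found for all 10, and 3 of them, Atf3, Chac1 and Nupr1, held the letters of the C/EBP-ATF element, searched as TGATGNAA on both strands. Of 32851 windows of this length, 3.45% held it. The cyclic AMP element, searched as TGACGTCA, was found before Ppp1r15a alone of the 10 and in 1.55% of all windows. The 4 windows with a match are shown. No window of the 10 genes held both motifs, and the second motif reads the same on both strands. Capitals mark the matches. The C/EBP-ATF match lies on the strand opposite to the one printed, so the printed letters read TTGCATCA.

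Atf3 promoter, chr1:191183334-191183583, minus strand: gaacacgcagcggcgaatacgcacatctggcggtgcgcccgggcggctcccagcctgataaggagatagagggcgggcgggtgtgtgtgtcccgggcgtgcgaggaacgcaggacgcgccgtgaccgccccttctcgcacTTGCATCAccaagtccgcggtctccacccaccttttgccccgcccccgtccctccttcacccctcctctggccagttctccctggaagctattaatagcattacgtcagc

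Chac1 promoter, chr2:119350992-119351241, plus strand: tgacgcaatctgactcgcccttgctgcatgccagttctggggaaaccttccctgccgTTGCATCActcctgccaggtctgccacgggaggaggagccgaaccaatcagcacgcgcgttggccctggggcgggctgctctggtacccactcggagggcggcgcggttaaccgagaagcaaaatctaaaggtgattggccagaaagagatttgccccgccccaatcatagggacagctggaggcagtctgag

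Nupr1 promoter, chr7:126625471-126625720, minus strand: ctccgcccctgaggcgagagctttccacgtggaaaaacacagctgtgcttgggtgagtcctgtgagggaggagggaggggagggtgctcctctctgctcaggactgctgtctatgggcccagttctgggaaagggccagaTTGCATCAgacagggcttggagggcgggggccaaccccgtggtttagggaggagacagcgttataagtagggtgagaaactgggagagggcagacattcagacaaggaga

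Ppp1r15a promoter, chr7:45526269-45526518, minus strand: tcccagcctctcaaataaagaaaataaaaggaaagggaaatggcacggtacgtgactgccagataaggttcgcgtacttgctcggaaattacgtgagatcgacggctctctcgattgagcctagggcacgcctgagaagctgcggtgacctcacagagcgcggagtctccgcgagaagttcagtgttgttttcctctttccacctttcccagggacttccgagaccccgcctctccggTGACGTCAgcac

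The match ends 103 bases before the start in Atf3 and in Nupr1 and 186 bases before it in Chac1, and the cyclic AMP element ends 5 bases before the start of Ppp1r15a. No match was found in the windows of Atf4, Atf5, Ddit3, Cebpb, Cebpg and Trib3, which says only that these letters are not there. Atf5 has 2 windows, and the window of Cebpb was the richest of the 10 in G and C, at 81.6%, against a median of 52.4% over all windows. Of the 10 genes, Atf5, Cebpg, Ppp1r15a and Nupr1 lie on chromosome 7, and Cebpb, Trib3 and Chac1 on chromosome 2.

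Libraries held 38407520 to 53602289 counts with 1 row per gene, and the share of the 10 genes together ranged from 0.0512 to 0.0655% when fed and from 0.274 to 0.303% when starved. The 2 libraries of a group differed by more than sampling noise in all 4 groups (chi-square per degree of freedom 3.37 to 6.21). Kdm3a followed the labels in starved cells and not in fed cells. Starved WT libraries held 176 and 185 CPM of Kdm3a and starved libraries labelled KO held 65.4 and 66.7 CPM (-1.45 ± 0.041, adjusted p = 3.74e-18). When fed, WT libraries held 56.1 and 56.4 CPM (counts per 1000000 counts of the scaled library) and libraries labelled KO held 55.2 and 55.4 CPM (-0.02 ± 0.043, adjusted p = 0.619). Counts over a whole transcript cannot show a lost exon. These libraries are therefore called KO-labelled, and each direction between genotypes rests on that label. Genotype and sex of the cells cannot be told apart, since Xist lay at 0.939 to 1.54 CPM in WT and 869 to 1370 CPM in KO-labelled libraries and 4 Y-linked genes summed to 2846 to 3608 and 0 to 5 counts. Of 9 fibroblast markers, 8 in WT and 9 in KO-labelled groups had over 3 counts in a library, with summed levels of 16107 to 16497 (WT fed), 12364 to 12383 (WT starved), 6700 to 6777 (KO-labelled fed) and 5288 to 5307 CPM (KO-labelled starved), and Lum was at 0 in starved WT. These sums hide opposite moves. By the test given below, 2 were called higher and 5 lower after starvation in WT (36.7% and 44.8% of all genes). Vim rose from 4397 to 11359 CPM, while Col1a1 fell from 4662 to 247 CPM and Col1a2 from 6110 to 367 CPM. In fed KO-labelled cells 4 were called higher and 5 lower (34.5% and 39.8% of all genes). Col1a2 was at 264 CPM against 6110 in WT, Thy1 at 6.25 against 101 and Dcn at 51.4 against 2.41 CPM. Among 5 blood markers Ptprc and Emr1 were at 0 in every library and the sum ranged from 2.8 to 5.76 CPM outside starved KO-labelled cells, where it was 46.9 to 47.1 CPM. Cd68 made up 40.9 and 40.7 CPM of it and Csf1r 6.03 and 6.42 CPM. Csf1r had means of 0.418 CPM in fed KO-labelled and 1.32 CPM in starved WT cells. The 4 endothelial markers summed to 2.29 to 5.5 CPM outside starved WT cells, where the sum of 52.9 to 54.9 CPM was nearly all Kdr (54.8 and 52.8 CPM) and Pecam1, Cdh5 and Tek were at or near 0. Epithelial markers summed to at most 2.27 CPM and neural markers to at most 15.8 CPM. The part of other cells in the results was not tested, and in such bulk samples fewer cells of a type and less RNA per cell cannot be told apart.

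Starvation raised the whole set in WT cells and all but Cebpb in KO-labelled cells. In WT, 10 of 10 genes were called higher, where 36.7% of the 14418 tested genes were called higher and 44.8% lower (edgeR's quasi-likelihood test, Benjamini-Hochberg adjusted p under 0.05). In KO-labelled cells 9 of 10 were called higher and none lower (39.4% higher and 40.3% lower over all genes). The median log2 fold change of the 10 genes was 2.90 in WT and 2.65 in KO-labelled cells, against -0.17 and -0.02 over all tested genes. The smallest rise in WT was that of Cebpg (0.86) and the largest that of Atf3 (5.92).

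**Figure D1:**
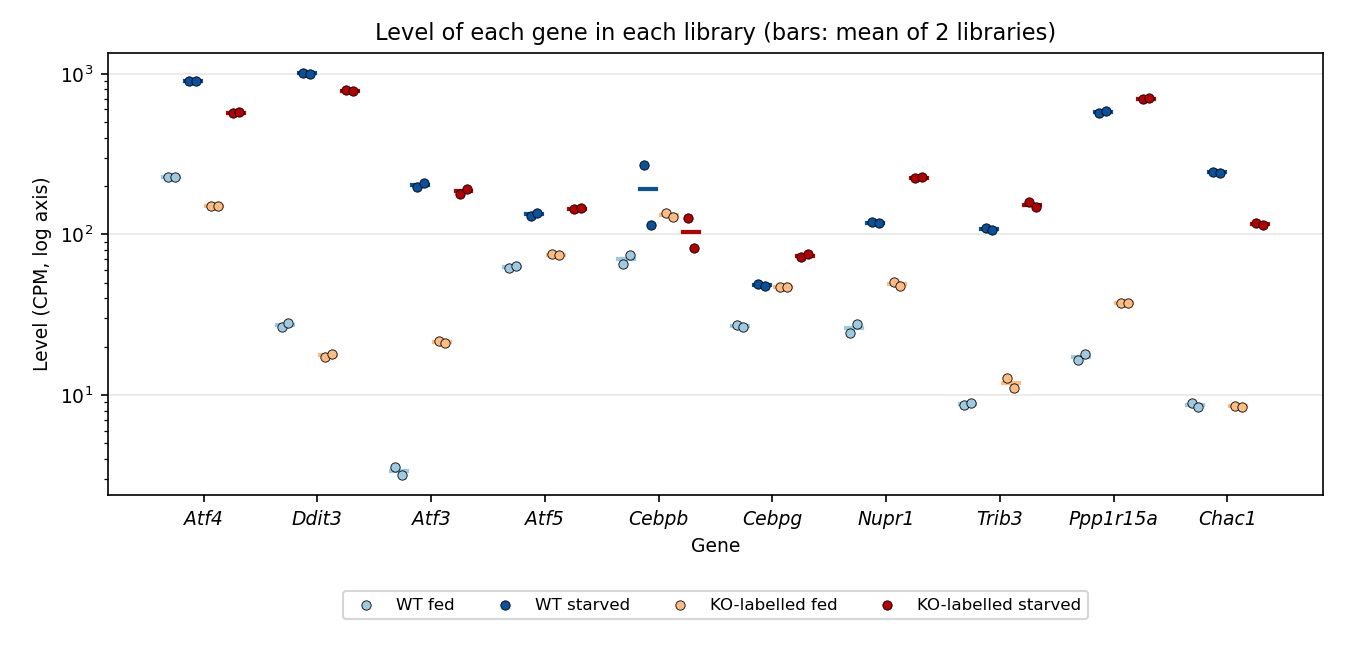
Level of the 10 genes in each of the 8 libraries, in CPM on a log axis; each point is a library, and the short bar is the mean of the 2 libraries of a group. Starved points lie above fed points of the same genotype for every gene except Cebpb in KO-labelled cells, and the 2 starved WT points of Cebpb stand apart at 271 and 114 CPM.

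Atf4, which stands at the head of the cascade, was read at 229 and 227 CPM in fed WT, 909 and 898 in starved WT, 150 and 150 in fed KO-labelled and 568 and 578 CPM in starved KO-labelled libraries. The 4 groups did not overlap, and KO-labelled cells were the lower in both states. Atf4 messenger rose 3.96-fold in WT (log2 fold change 1.98 ± 0.028, SE, adjusted p = 2.56e-23) and 3.83-fold in KO-labelled cells (1.94 ± 0.028, adjusted p = 5.37e-23). It was thus a moderate riser among the 10 in fold and one of the most abundant in level.

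Ddit3, the gene of CHOP, stood at 26.5 and 28.1 CPM in fed WT, 1014 and 1002 CPM in starved WT, 17.3 and 18 CPM in fed KO-labelled and 791 and 784 CPM in starved KO-labelled libraries. Again no groups overlapped, and the fed and starved values of KO-labelled cells lay below those of WT. The rise was 36.9-fold in WT (5.20 ± 0.037, adjusted p = 4.57e-28) and 44.7-fold in KO-labelled cells (5.48 ± 0.037, adjusted p = 9.37e-28). Per length of spliced transcript, Ddit3 went from 0.224 and 0.24 times the level of Atf4 in the fed WT libraries to 2.16 times in both starved ones. In KO-labelled libraries the same ratio of levels was 0.224 and 0.233 fed and 2.7 and 2.63 starved. The 2 genes thus changed places: Atf4 was the more abundant messenger per length in the 4 fed libraries and Ddit3 in the 4 starved ones. Exons of Mars, a tRNA synthetase gene, overlap those of Ddit3 on the other strand, and without strand their shared reads cannot be told apart; Mars was read at 140 CPM in fed and 344 CPM in starved WT (means), a smaller rise than that of Ddit3.

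Atf3, a factor that mostly represses and is itself a target of ATF4 and CHOP, had the lowest fed level of all: 3.54 and 3.18 CPM in WT. It reached 199 and 209 CPM in starved WT, and lay at 21.7 and 21.2 CPM in fed and 179 and 191 CPM in starved KO-labelled libraries. Fed groups were far apart, while the starved libraries of the 2 genotypes lay close without overlapping. The rise was 60.5-fold in WT (5.92 ± 0.066, adjusted p = 5.01e-25) and 8.63-fold in KO-labelled cells (3.11 ± 0.048, adjusted p = 1.23e-22).

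Atf5, a relative of ATF4 with the same kind of translational control, moved little. It was at 61.5 and 63.3 CPM in fed WT, 131 and 136 CPM in starved WT, 75.5 and 74.4 CPM in fed KO-labelled and 144 and 146 CPM in starved KO-labelled libraries. The groups were separate, and the rise was 2.14-fold in WT (1.10 ± 0.04) and 1.93-fold in KO-labelled cells (0.95 ± 0.038). The row used is a non-coding transcript of the gene, which held 2656 counts in fed WT replicate 1 where the coding transcript's row held 2330. Exons of Nup62 overlap it on the other strand, and without strand their shared reads cannot be told apart. Nup62 was at 76.9 CPM in fed and 173 CPM in starved WT (means), a rise about as large as that of Atf5. In KO-labelled cells Nup62 was at 118 CPM fed and 169 CPM starved, so it too was higher than in WT when fed.

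Cebpg, a short C/EBP protein without an activation domain that pairs with ATF4, rose least in WT. Its levels were 27.1 and 26.5 CPM in fed WT, 49.3 and 47.9 CPM in starved WT, 47.3 and 46.8 CPM in fed KO-labelled and 71.9 and 75.3 CPM in starved KO-labelled libraries. Fed KO-labelled and starved WT libraries were thus within 3 CPM of each other. The rise was 1.81-fold in WT (0.86 ± 0.053, adjusted p = 2.14e-12) and 1.56-fold in KO-labelled cells (0.65 ± 0.046, adjusted p = 3.36e-11).

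Cebpb, a C/EBP activator that also pairs with ATF4 and CHOP, was the gene with the poorest agreement between libraries. It was read at 65.5 and 74.8 CPM in fed WT, 271 and 114 CPM in starved WT, 136 and 128 CPM in fed KO-labelled and 126 and 82.2 CPM in starved KO-labelled libraries. Both starved WT libraries lay above both fed ones, and both starved KO-labelled libraries lay below both fed ones. The WT rise was called (1.45 ± 0.23, adjusted p = 6.8e-06), and was 0.77 without starved WT replicate 1 and 2.03 without replicate 2. In KO-labelled cells the difference was -0.35 ± 0.22 (adjusted p = 0.154). That value was called a fall with library totals (-0.60, adjusted p = 0.0165), in a fit of the 2 groups alone (-0.35, adjusted p = 0.00224), without either starved WT library (-0.40 each, adjusted p = 3.53e-05 and 2.79e-05) and without starved KO-labelled replicate 1 (-0.68, adjusted p = 0.0288), and was -0.07 without starved KO-labelled replicate 2. With no filter on low counts it was also called (-0.35, adjusted p = 1.43e-17), in a fit that left no spread particular to a gene. The higher starved WT library was 2.38 times the lower, the 2nd largest such ratio among 5907 genes with 2000 counts or more in that group, where the median ratio was 1.04. Exons of Tmem189 overlap Cebpb on the other strand, and without strand their shared reads cannot be told apart. Tmem189 was read at 26.6 CPM in fed and 38.6 CPM in starved WT (means). In KO-labelled cells it was at 57.8 CPM fed and 84.3 CPM starved.

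**Figure D2:**
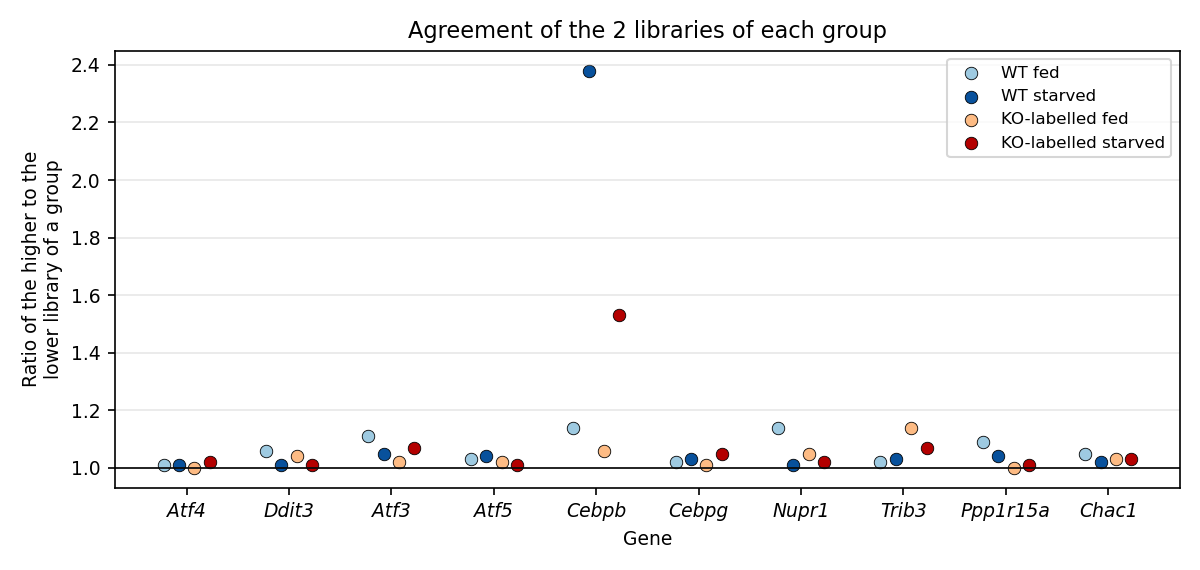
Ratio of the higher to the lower of the 2 libraries of each group, for each of the 10 genes; 1 means equal CPM. Cebpb in starved WT (2.38) and in starved KO-labelled cells (1.53) stands above all other points, which lie at 1.14 or less.

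Nupr1, a small chromatin-associated stress protein, followed another course. It was at 24.4 and 27.7 CPM in fed WT, 119 and 118 CPM in starved WT, 50.3 and 48 CPM in fed KO-labelled and 223 and 227 CPM in starved KO-labelled libraries. KO-labelled cells held nearly the same multiple of the WT level in both states. The rise was 4.55-fold in WT (2.19 ± 0.051, adjusted p = 9.1e-20) and 4.58-fold in KO-labelled cells (2.20 ± 0.045, adjusted p = 1.59e-20).

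The feedback gene Ppp1r15a was at 16.5 and 17.9 CPM in fed WT, 569 and 589 CPM in starved WT, 37.5 and 37.6 CPM in fed KO-labelled and 694 and 704 CPM in starved KO-labelled libraries. Groups did not overlap, and KO-labelled cells were the higher in both states. It rose 33.7-fold in WT (5.07 ± 0.041, adjusted p = 3.5e-27) and 18.6-fold in KO-labelled cells (4.22 ± 0.037, adjusted p = 1.99e-26). Tulp2, whose exons overlap it on the other strand, stayed at or below 0.526 CPM in every library.

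Trib3, the pseudokinase brake, was at 8.68 and 8.88 CPM in fed WT, 110 and 107 CPM in starved WT, 12.7 and 11.1 CPM in fed KO-labelled and 158 and 148 CPM in starved KO-labelled libraries. It too was higher in KO-labelled cells in both states, with no overlap of groups. Its rise was 12.3-fold in WT (3.62 ± 0.063, adjusted p = 8.44e-22) and 12.8-fold in KO-labelled cells (3.68 ± 0.057, adjusted p = 1.44e-22).

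Chac1, whose enzyme breaks down glutathione, was at 8.89 and 8.45 CPM in fed WT, 245 and 241 CPM in starved WT, 8.6 and 8.37 CPM in fed KO-labelled and 117 and 114 CPM in starved KO-labelled libraries. The fed groups overlapped and the starved groups were far apart, the reverse of Atf3. Chac1 rose 28-fold in WT (4.81 ± 0.051, adjusted p = 3.27e-25) and 13.6-fold in KO-labelled cells (3.77 ± 0.05, adjusted p = 1.16e-23).

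**Figure D3:**
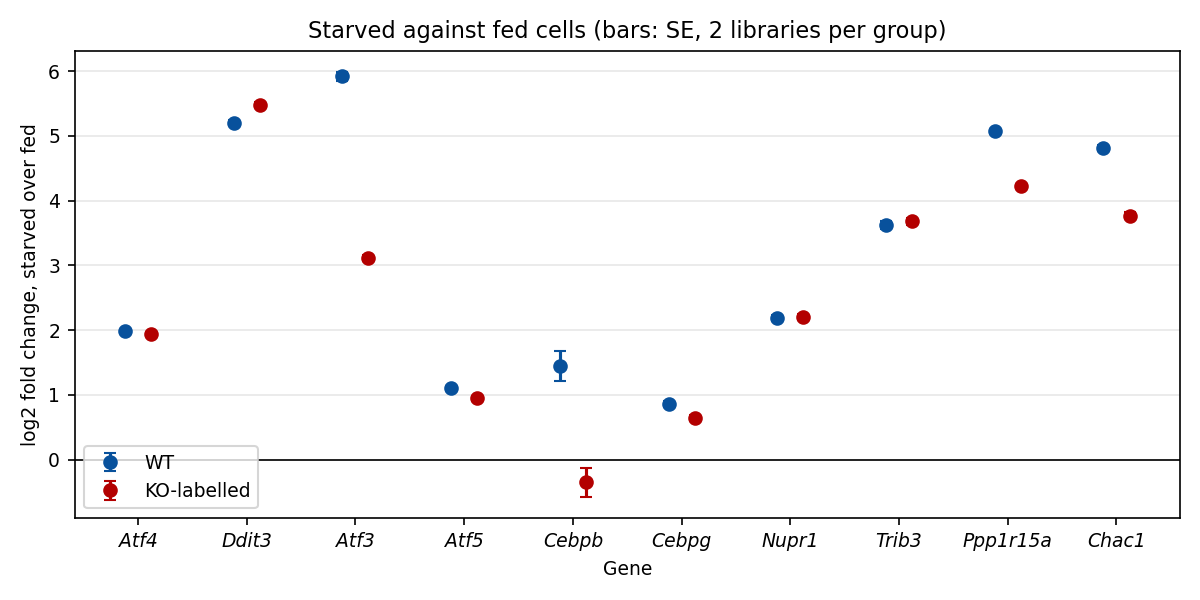
Log2 fold change of starved over fed cells for each of the 10 genes in WT and in KO-labelled cells, with SE bars (2 libraries per group). Points of the 2 genotypes nearly coincide for Atf4, Trib3 and Nupr1 and lie apart for Atf3 (5.92 and 3.11), Cebpb (1.45 and -0.35) and Chac1 (4.81 and 3.77).

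Levels per length were ordered differently in fed and starved cells. In fed WT Atf4 led with 132 CPM per kb of spliced transcript, followed by Cebpb (46.7), Atf5 (34.4), Nupr1 (31.4), Ddit3 (30.7), Ppp1r15a (7.37), Cebpg (5.69), Chac1 (5.3), Trib3 (4.33) and Atf3 (1.7). Of these neighbours, the libraries of Nupr1 and Ddit3 overlapped and the others did not. In starved WT the order began with Ddit3 (1132 CPM per kb), Atf4 (524), Ppp1r15a (248), Chac1 (149), Nupr1 (143) and Cebpb (128). Next came Atf3 (103), Atf5 (73.6), Trib3 (53.4) and Cebpg (10.3). Here Cebpb (75.7 to 180) overlapped both of its neighbours and also Chac1. Fed KO-labelled cells had Cebpb (87.7 CPM per kb) and Atf4 (86.8) first, with overlapping libraries, and Chac1 (5.18) last. Starved KO-labelled cells began with Ddit3 (885 CPM per kb), Atf4 (332), Ppp1r15a (300) and Nupr1 (272) and ended with Chac1 (70.6), Cebpb (69.2) and Cebpg (15.6), where Cebpb (54.7 to 83.7) overlapped Chac1 and also Trib3 (75.7) and Atf5 (79.7). Cebpg was the least abundant of the 10 in both starved groups.

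Between fed cells, KO-labelled libraries held more of most of these messengers but less of Atf4 and Ddit3. Of the 10 genes, 7 were called higher and 2 lower (34.5% and 39.8% of all tested genes), with a median difference of 0.63 against -0.06 over all genes. Atf3 differed most, at 6.38-fold higher (2.67 ± 0.079, adjusted p = 1.43e-17), followed by Ppp1r15a at 2.19-fold (1.13 ± 0.045), Nupr1 at 1.89-fold (0.92 ± 0.052) and Cebpg at 1.75-fold (0.81 ± 0.051). Cebpb was 1.88-fold higher (0.91 ± 0.23, adjusted p = 0.00126), a call lost with DESeq2 (adjusted p = 0.066). Trib3 (0.45 ± 0.077) and Atf5 (0.26 ± 0.04) were higher by smaller amounts. Atf4 was lower by a factor of 1.53 (-0.61 ± 0.028, adjusted p = 2.82e-14) and Ddit3 by a factor of 1.55 (-0.63 ± 0.043, adjusted p = 2.21e-11). For Chac1 the difference was -0.03 ± 0.069 (adjusted p = 0.716).

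In starved cells the genes split evenly. KO-labelled libraries were called higher for 5 genes and lower for 5 (41.9% and 37.7% of all tested genes), with a median difference of -0.01. Nupr1 was 1.9-fold higher (0.93 ± 0.043), Cebpg 1.51-fold (0.60 ± 0.048), Trib3 1.42-fold (0.50 ± 0.047) and Ppp1r15a 1.21-fold (0.27 ± 0.031). Chac1 was lower by a factor of 2.1 (-1.07 ± 0.038, adjusted p = 1.99e-16) and Atf4 by a factor of 1.58 (-0.66 ± 0.027). The differences of Ddit3, Atf3, Atf5 and Cebpb depended on the scaling, on the method or on single libraries. Ddit3 was -0.36 ± 0.028 and -0.04 with library totals (adjusted p = 0.214). Atf3 was called lower (-0.14 ± 0.041), was called higher with library totals (0.18, adjusted p = 0.000422), and was -0.09 (adjusted p = 0.119) without starved KO-labelled replicate 1 and -0.24 without starved WT replicate 1. Atf5 was called higher (0.11 ± 0.038), with values of 0.02 and 0.07 (adjusted p = 0.641 and 0.133) without starved WT replicate 1 or 2, 0.11 (adjusted p = 0.0572) without starved KO-labelled replicate 2 and 0.05 (adjusted p = 0.286) with DESeq2. Cebpb was called lower (-0.89 ± 0.22, adjusted p = 0.0011), with -0.20 (adjusted p = 0.0868) and -1.45 without starved WT replicate 1 or 2 and an adjusted p of 0.0596 with DESeq2. Library totals in place of TMM moved the median of all genes in this comparison from 0.07 to 0.39, and gave 6 genes of the set higher and 3 lower.

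**Figure D4:**
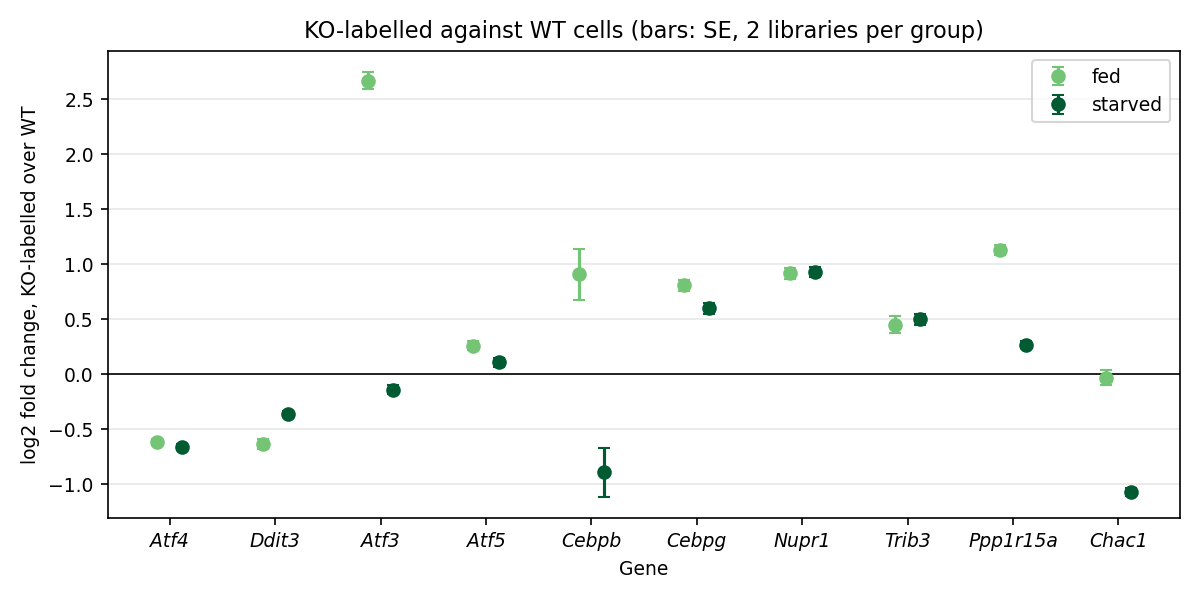
Log2 fold change of KO-labelled over WT cells when fed and when starved, with SE bars (2 libraries per group). Atf4 and Nupr1 keep nearly the same difference in both states (-0.61 and -0.66, 0.92 and 0.93), Atf3 goes from 2.67 to -0.14, and Chac1 goes from -0.03 to -1.07.

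The difference between the 2 starvation responses was then tested itself, as the log2 fold change in KO-labelled cells minus that in WT. It was called negative for 6 of the 10 genes and positive for 1, where 30.4% and 34.1% of all genes were so called, with a median of -0.18. With library totals 4 were called negative and 4 positive, with a median of 0.02. Atf3 had the largest difference (-2.81 ± 0.091, adjusted p = 3.92e-16), followed by Cebpb (-1.80 ± 0.32, adjusted p = 4.52e-05, and -1.17 or -2.43 without starved WT replicate 1 or 2), Chac1 (-1.04 ± 0.078, adjusted p = 2.12e-10) and Ppp1r15a (-0.86 ± 0.055, adjusted p = 1.93e-11). These 4 kept their sign and their call in every fit tried. Between genotypes, Atf3 and Ppp1r15a lay further apart when fed (2.67 and 1.13) than when starved (-0.14 and 0.27). Chac1 lay further apart when starved (-1.07) than when fed (-0.03). Cebpb had opposite signs when fed and when starved (0.91 and -0.89), and neither of these differences was called with DESeq2.

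The other differences of response were small. Ddit3 had a larger rise in KO-labelled cells (0.28 ± 0.051, adjusted p = 7.71e-05), which was 0.16 and 0.14 without starved WT replicate 1 or 2 and 0.48 with library totals. Cebpg (-0.21 ± 0.07, adjusted p = 0.0121) was not called with library totals (-0.01), without fed WT replicate 2 (-0.19, adjusted p = 0.0504) or without starved KO-labelled replicate 1 (-0.17, adjusted p = 0.0669), and was -0.32 and -0.37 without starved WT replicate 1 or 2. Atf5 (-0.15 ± 0.055, adjusted p = 0.0221) turned to 0.05 with library totals, was not called without fed WT replicate 1 (-0.12), fed KO-labelled replicate 1 (-0.14) or starved KO-labelled replicate 1 (-0.13), and was -0.30 and -0.25 without starved WT replicate 1 or 2. For Atf4 (-0.05 ± 0.039, adjusted p = 0.292), Trib3 (0.06 ± 0.091, adjusted p = 0.604) and Nupr1 (0.01 ± 0.068, adjusted p = 0.917) no difference was called. With library totals all 3 were called positive (0.15, 0.26 and 0.21), and Atf4 was called negative without starved WT replicate 1 or 2 (-0.17 and -0.19), with DESeq2 (-0.15) and with a minimum of 5 CPM (-0.12).

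Upstream of ATF4 lie the eIF2 kinases, eIF2 with its exchange factor and their regulators. Of 21 such genes tested, 16 rose and 5 fell in WT (median 0.45), where 36.7% of all genes were called higher and 44.8% lower, and with library totals 9 rose and 7 fell. In KO-labelled cells 13 rose and 5 fell (median 0.29), where 39.4% and 40.3% of all genes were so called, and with library totals 10 rose and 8 fell (median 0.04). Eif2ak3, the ER stress kinase PERK, rose from 32.2 ± 1.8 to 54.1 ± 0.62 CPM in WT and from 23.2 ± 0.075 to 50.5 ± 0.15 CPM in KO-labelled cells (mean ± SD, n = 2 libraries). Eif2ak4, the amino acid sensor GCN2, rose from 43 ± 0.88 to 61.7 ± 0.33 and from 41.1 ± 1.6 to 49 ± 0.97 CPM. With library totals the median of all genes moved from -0.17 to -0.63 in WT and from -0.02 to -0.27 in KO-labelled cells. The size of rises as small as those of Eif2ak4 therefore depends on the scaling. Eif2s1, the subunit these kinases phosphorylate, rose by 1.13 ± 0.04 and 0.70 ± 0.039 on the log2 scale. Eif2ak2, the kinase PKR that senses double-stranded RNA and is induced by interferon, was the one of the 21 that fell furthest in WT (-2.51 ± 0.064) and was higher in KO-labelled cells when fed (161 ± 3.7 against 42.1 ± 0.44 CPM). Impact, which binds the GCN2 activator, rose from 91.3 ± 0.13 to 364 ± 2.9 CPM in WT and from 48.4 ± 0.38 to 112 ± 4.4 CPM in KO-labelled cells, a difference of responses of -0.79 ± 0.052. Eif2b3, of the exchange factor, rose by 2.12 ± 0.061 in WT. Ppp1cc, a catalytic subunit that PPP1R15 proteins bind, fell in both genotypes (-0.66 ± 0.036 in WT and -1.80 ± 0.037 in KO-labelled cells, difference -1.13 ± 0.051).

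The constitutive counterpart of Ppp1r15a did not share its course. Ppp1r15b, which encodes the phosphatase-targeting subunit present without stress, was at 79.2 ± 1.4 CPM in fed and 88 ± 0.85 CPM in starved WT (0.15 ± 0.04, adjusted p = 0.00152), and at 123 ± 3.3 and 126 ± 0.22 CPM in KO-labelled cells (0.03 ± 0.037, adjusted p = 0.484). Relatives of the other brake and effector went the opposite way from them. Trib1 and Trib2, the other Tribbles genes, had log2 fold changes of -3.36 ± 0.084 and -6.11 ± 0.18 in WT and of -2.18 ± 0.071 and -4.23 ± 0.16 in KO-labelled cells, all called, with Trib2 at 29.7 ± 0.24 CPM in fed and 0.428 ± 0.18 CPM in starved WT. Chac2, the sister enzyme of Chac1, went from 6.2 ± 0.41 to 2.38 ± 0.15 CPM in WT (-1.38 ± 0.16). Egln3, an oxygen-sensing hydroxylase known to bind ATF4, went from 3.22 ± 0.47 to 0.881 ± 0.07 CPM in KO-labelled cells and was at 1.59 ± 0.013 and 1.8 ± 0.026 CPM in WT, a difference of responses of -2.05 ± 0.36. In this list of relatives and turnover genes 2 of 10 rose and 6 fell in WT, and 2 rose and 8 fell in KO-labelled cells (36.7% higher and 44.8% lower over all genes in WT, 39.4% and 40.3% in KO-labelled cells). With library totals 1 rose and 8 fell in WT.

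Among 23 tested bZIP partners and relatives, 13 rose and 8 fell in WT (36.7% and 44.8% of all genes) and 14 rose and 5 fell in KO-labelled cells (39.4% and 40.3% of all genes). With library totals the counts were 10 and 10 in WT and 11 and 5 in KO-labelled cells. Atf6, the ER membrane sensor, rose from 28.4 ± 0.29 to 187 ± 1.8 CPM in WT and from 71.6 ± 0.42 to 355 ± 9.7 CPM in KO-labelled cells, and Xbp1, the factor spliced by IRE1, rose by 1.84 ± 0.048 and 1.99 ± 0.045. Cebpd, an inflammatory C/EBP gene, fell in both (-1.72 ± 0.045 and -1.84 ± 0.042), unlike Cebpb and Cebpg in WT. Nfe2l2, the oxidant-response factor NRF2, rose by 1.43 ± 0.036 in WT and by 0.23 ± 0.035 in KO-labelled cells (difference -1.19 ± 0.05). Library totals moved the median of all genes in KO-labelled starvation from -0.02 to -0.27, so the rise of 0.23 depends on the scaling. Maf fell in both (-0.46 ± 0.15 and -1.72 ± 0.12, difference -1.25 ± 0.19).

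Downstream, 32 of 35 ATF4 targets rose and 3 fell in WT (median 2.12; 29 and 4 with library totals), and 32 rose and 3 fell in KO-labelled cells (median 2.49). Over all genes 36.7% rose and 44.8% fell in WT, and 39.4% rose and 40.3% fell in KO-labelled cells. Slc3a2, the heavy chain shared by several amino acid transporters, rose from 177 ± 5.7 to 2265 ± 10 CPM in WT and from 106 ± 2.9 to 2103 ± 16 CPM in KO-labelled cells. Adm2, a peptide hormone, rose by 4.33 ± 0.21 and 5.76 ± 0.2. Fgf21, a stress hormone, had 0 counts in fed and 80 and 64 counts in starved WT libraries, and 0 counts in fed and 65 and 78 counts in starved KO-labelled libraries, so it was at least 31.1-fold and 26.9-fold higher after starvation, with 3 counts per fed library as the floor. Slc7a3, an arginine transporter, rose by 3.14 ± 0.093 in WT and 6.21 ± 0.11 in KO-labelled cells (difference 3.07 ± 0.17). Pycr1, of proline synthesis, fell from 18.2 ± 0.48 to 13.5 ± 0.65 CPM in WT and rose from 5.99 ± 0.33 to 28.8 ± 1.8 CPM in KO-labelled cells (difference 2.70 ± 0.13).

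In fed KO-labelled cells 25 of the 35 targets were called lower and 7 higher (median -0.61), where 39.8% of all genes were called lower and 34.5% higher. Slc3a2 stood at -0.74 ± 0.029 and Pycr1 at -1.61 ± 0.092, the same direction as Atf4 (-0.61) and Ddit3 (-0.63). That lean of the targets was weaker in starved cells, where Atf4 was at -0.66, and it turned with library totals. There 20 were called lower and 11 higher (median -0.21), where 37.7% of all genes were called lower and 41.9% higher. With library totals 12 were called lower and 19 higher (median 0.11). Slc3a2 was at -0.11 ± 0.026 and Pycr1 at 1.10 ± 0.085. For the difference of responses, 22 targets were called positive and 6 negative (median 0.48), where 34.1% and 30.4% of all genes were so called, and 28 and 4 with library totals. Of the 9 CHOP targets, 6 were called higher and 2 lower in each genotype after starvation, and with library totals 5 and 3 in WT and 6 and 3 in KO-labelled cells. Over all genes 36.7% were called higher and 44.8% lower in WT, and 39.4% and 40.3% in KO-labelled cells. The 2 called lower were Bcl2l11 (-3.10 ± 0.11 in WT and -2.20 ± 0.091 in KO-labelled cells) and Bcl2 (-1.19 ± 0.13 and -0.79 ± 0.12). The list does not separate targets that CHOP raises from those it lowers, so these counts give no direction of its activity. Gadd45a, a growth arrest gene, rose from 10 ± 0.95 to 508 ± 4.8 CPM in WT and from 6.2 ± 0.17 to 158 ± 1.2 CPM in KO-labelled cells, where its starved level was the lower (-1.69 ± 0.036 against WT). Car6, a secreted carbonic anhydrase, rose by 5.50 ± 0.22 and 7.67 ± 0.19 (difference 2.17 ± 0.53), and Dnajb9, an ER co-chaperone, by 3.54 ± 0.053 and 4.11 ± 0.048.

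**Figure D5:**
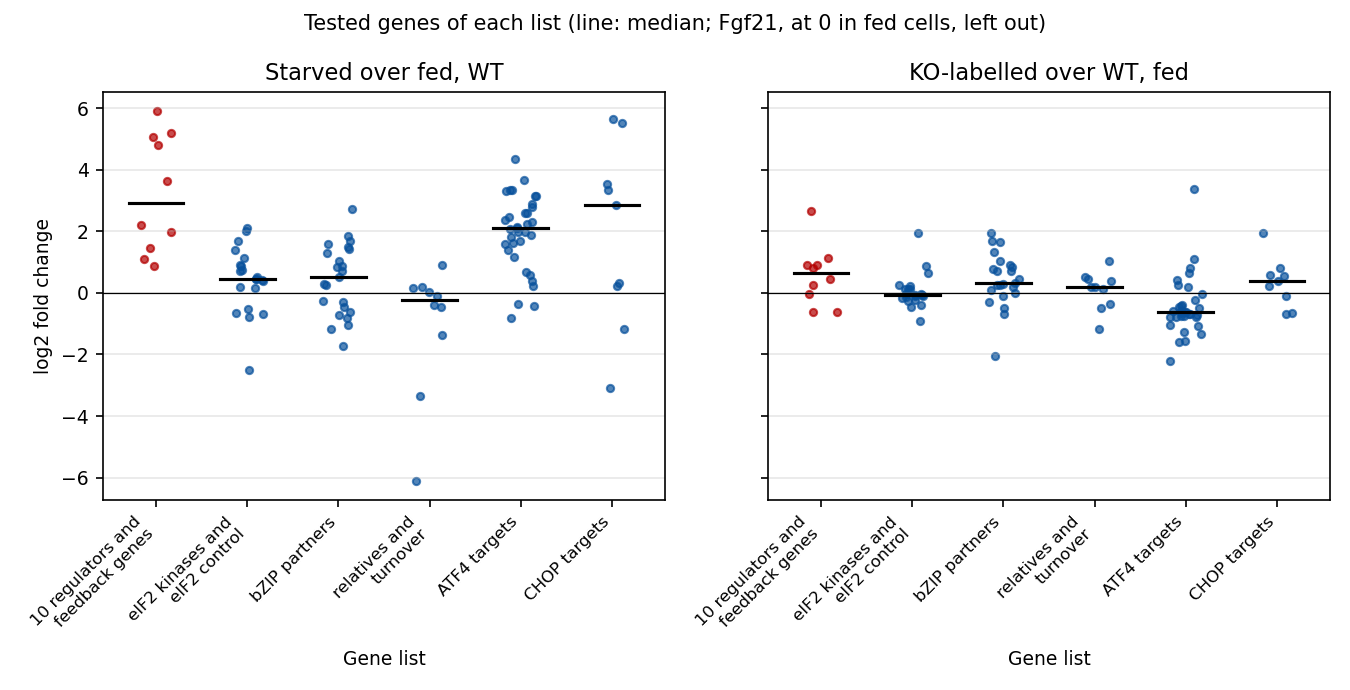
Log2 fold changes of the tested genes of each list, starved over fed in WT (left) and KO-labelled over WT when fed (right); points are genes, lines are medians, and Fgf21 is left out because it had no counts in fed cells. On the left the 10 genes (median 2.90), the ATF4 targets and the CHOP targets lie mostly above 0; on the right most ATF4 targets lie below 0.

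Likeness of pattern was measured as the root mean square difference of centred group means in log2 CPM over the 4 groups, as a description. The genes nearest to Atf4 were Aars, the alanyl-tRNA synthetase (0.028), Mybbp1a (0.062) and Wdfy1 (0.063), where the median over all tested genes was 1.23. Aars was read at 372 ± 13, 1549 ± 21, 246 ± 2.2 and 955 ± 15 CPM in fed and starved WT and fed and starved KO-labelled cells. For Ddit3 the 3 smallest distances were those of Fgf21, Angptl6 and Serpinb6c. Fgf21 and Serpinb6c were at or near 0 counts in fed cells, so that the prior count of 2 added to the counts set their distances, and no likeness is read from them. Angptl6, of the angiopoietin-like proteins, was at a distance of 0.37, against a median of 2.81 over all genes, with mean levels of 1.87, 36.2, 0.931 and 33 CPM in the same order of groups. Dnajb9 (0.19), the phosphate transporter gene Slc20a1 (0.19) and Hspa5 (0.22), the ER chaperone BiP, lay nearest to Trib3. Within the set, Atf5 and Cebpg were each other's nearest at 0.29, Ddit3 and Chac1 at 0.62 and Trib3 and Ppp1r15a at 0.56; Atf3 was nearest to Ppp1r15a (0.57), and Atf4 (0.62), Cebpb (0.48) and Nupr1 (0.69) to Atf5.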

How the data were processed

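The table the authors deposited holds unnormalised read counts for 31055 RefSeq transcripts. TopHat2 2.0.9, bedtools and mm9 are named in the submitters' processing notes, with no roles. How strand and reads with several matches were handled is not given in the sources used here. A further 4 columns of values matched no labelled sample and were not used. No row lacked a gene symbol. Where a symbol had several rows, the one with most counts was kept. Counts were tested with edgeR 4.0.16 (R 4.3.3): filterByExpr (14418 genes), TMM scaling, a model of the 4 groups fitted to 8 libraries with 4 residual degrees of freedom, quasi-likelihood F test, Benjamini-Hochberg adjustment over all tested genes, threshold 0.05. SE was derived from the test, by dividing the size of the log2 fold change by the root of F. CPM are counts per 1000000 of the TMM-adjusted total, and levels per length divide them by the GENCODE M21 transcript paired with the RefSeq accession. Counting floors cover counting error only. The method was tested on simulated data.

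Named were the 10 genes, Kdm3a, 4 fixed genes of eIF2 control, from each of 5 pathway lists up to 3 called genes with the largest WT starvation change and up to 2 with the largest difference of responses, and the 3 genes nearest in pattern to Atf4, Ddit3 and Trib3. Bcl2l11 and Bcl2 were also named, as the CHOP targets called lower. The genes and lists were chosen with earlier results of these data known. Alternatives were library totals, DESeq2 1.42.0, no filter, a minimum of 5 CPM, a replicate block, fits of 2 groups, summed rows and leaving out each library.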

Additional observations from a re-analysis of the deposited data

Results flagged for a closer look

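The test of the difference between the 2 starvation responses, KO-labelled minus WT, passed for 7 of the 10 genes at an adjusted p under 0.05 (edgeR's quasi-likelihood test), where 30.4% of all genes were called negative and 34.1% positive. The values on the log2 scale were -2.81 for Atf3, -1.80 for Cebpb, -1.04 for Chac1, -0.86 for Ppp1r15a, -0.21 for Cebpg, -0.15 for Atf5 and 0.28 for Ddit3. Calls for Atf5 and Cebpg were lost under library totals and when single libraries were left out, as given with the results. Ddit3 kept its call but was 0.16 and 0.14 without starved WT replicate 1 or 2 and 0.48 with library totals. Cebpb kept its call and was -1.17 and -2.43 without starved WT replicate 1 or 2.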

How the results depend on the processing

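The number of the 10 genes called stayed within 1.5 times its value in all 5 comparisons under every alternative run: 10 in WT starvation, 9 or 10 in KO-labelled starvation, 8 or 9 between fed genotypes, 8 to 10 between starved genotypes and 5 to 8 for the difference of responses. Signs turned for 6 values. Chac1 between fed genotypes was 0.09 with library totals, 0.01 under DESeq2, 0.02 at a minimum of 5 CPM, 0.03 in the fit of 2 groups and -0.07 to 0.03 when libraries were left out. Atf3 between starved genotypes was 0.18 with library totals. For the difference of responses, library totals gave 0.15 for Atf4 and 0.05 for Atf5; Trib3 was -0.04 under DESeq2, -0.01 at a minimum of 5 CPM and -0.10 to 0.16 with libraries left out, and Nupr1 was -0.09, -0.06 and -0.13 to 0.11 in the same order. Library totals moved the median of all genes in WT starvation from -0.17 to -0.63, with 5296 higher and 6464 lower calls becoming 3397 and 8629. Without the filter the prior degrees of freedom went from 16.1 to infinite, and the SE of Cebpb in KO-labelled starvation from 0.22 to 0.041. Replicate numbers did not pair the libraries (r of deviations -0.087 to 0.013 between groups); with a replicate block 10, 9, 9, 10 and 7 of the genes were called, as without it, and 11620 genes in WT starvation against 11760. With 2 libraries a group, precision rests on a spread shared across groups; where a library was left out, the lone one was assumed to vary like the others. The fit of 2 groups does not exist for the difference of responses.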

Other observations

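Myl12b, a myosin light chain gene that is not one of the 10, had the largest gap between replicates among genes with 2000 counts or more in both starved groups, and Cebpb had the next largest in both. Myl12b was read at 109 and 38.1 CPM in starved WT and at 90.7 and 47.8 CPM in starved KO-labelled libraries, and Cebpb at 271 and 114 CPM and at 126 and 82.2 CPM. In these starved groups replicate 1 was the higher library for both genes. Fed libraries differed in Myl12b too, at 65.5 and 97.3 CPM in WT, where replicate 2 was the higher, and at 141 and 81.7 CPM in KO-labelled cells. The ratio for Cebpb in fed libraries was 1.14 in WT and 1.06 in KO-labelled cells. Myl12b was chosen after its values were seen, and the source of the gap was not tested.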
